A study of Mus musculus with 9 samples.

Results

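The transcripts of classical and class II antigen presentation were followed in microglia sorted from mouse brain. The set held 10 genes, picked by symbol from a list of names drawn up with earlier results of these data known. They are the class I heavy chains H2-K1 and H2-D1, the class I light chain B2m, the peptide transporter genes Tap1 and Tap2, the loading factor Tapbp, the class II chains H2-Aa, H2-Ab1 and H2-Eb1, and the invariant chain Cd74. These were 10 of the 23238 gene symbols counted, and each stood on a single entry of the count files. All 10 passed the filter on low counts, which left 12292 genes for testing.

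The study modelled neuromyelitis optica (NMO), an astrocyte disease driven by antibodies to the water channel aquaporin-4. Cells positive for CD45, CD11b and P2ry12 were sorted from brain on day 1 into 9 libraries of 3 groups, with 3 libraries per group and each library made from a pool of 3 samples. The methods described female C57BL/6N mice aged 12 weeks, and the labels gave their genotype as WT. Normal mice were untreated. NMO mice received immunoglobulin G of patients (NMO-IgG) with human complement into the striatum of 1 hemisphere. NMO+CL mice received the same mixture 6 h after an intraperitoneal dose of clodronate liposomes, which kill phagocytes that take them up. No microglia library with control immunoglobulin or with empty liposomes was analysed here, so antibody, complement and needle cannot be told apart, nor can clodronate and its carrier. P-values measure the spread between these pools.

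Class I molecules present peptides made in the cytosol to CD8 T cells. Their heavy chain pairs with beta-2-microglobulin in the endoplasmic reticulum, where a transporter of 2 subunits, TAP1 and TAP2, delivers peptides and tapasin (Tapbp) bridges the transporter to the empty class I molecule. Class II molecules are pairs of an alpha and a beta chain that present peptides of engulfed proteins to CD4 T cells, and the invariant chain (Cd74) escorts them to the endosome. Resting microglia are known for low class II, which interferon gamma raises through the coactivator Ciita.

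Levels are given as CPM, counts scaled to a common library size after TMM normalization in edgeR. Reads came from the 3′ ends of transcripts, and the authors counted multiple as well as unique alignments. Library totals ran from 5788234 to 7837219 counts. The 8 microglia markers summed to between 28062 and 37154 CPM in the Normal and NMO libraries and to between 19319 and 26917 CPM in the NMO+CL libraries. Of these 8, edgeR called 1 lower in NMO against Normal (Siglech), 2 lower in NMO+CL against NMO (P2ry12 and Siglech) and 5 lower in NMO+CL against Normal. P2ry12, the gene of the sort marker, measured 2608, 2055 and 2665 CPM in Normal, 1756, 1558 and 1630 CPM in NMO and 449, 266 and 344 CPM in NMO+CL. It was 4.67-fold lower in NMO+CL than in NMO (adjusted p = 1.73e-05, edgeR) and 6.92-fold lower than in Normal (adjusted p = 4.62e-07, edgeR). NMO replicate 2 stood apart, with 41 genes at 0 that had at least 20 counts in all other libraries, against 0 to 13 such genes in the others. In these bulk libraries, fewer cells of a type and less RNA per cell cannot be told apart. A gene was called where the adjusted p of edgeR's quasi-likelihood test was under 0.05.

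Promoter windows, from 250 bases before the start site through 50 bases from it, were held for 7 of the 10 members in RefSeq's annotation of GRCm38.p6, and not for Tap2, H2-Ab1 and Cd74. The heavy chain windows are shown because these 2 genes are the most alike of the set, the Tap1 window because it also holds the start site of Psmb9, and the class II windows because both chains had their lowest mean in NMO+CL. Capitals mark matches, on either strand, to ATTGG (the Y box, which reads CCAAT on the other strand), GGGATTCCC (a kappa B form) or GAAANNGAA (an interferon response form). No 2 of the motifs overlapped in these windows.
The H2-K1 window lies at chr17:34000298-34000597 on the minus strand and the H2-D1 window at chr17:35262844-35263143 on the plus strand.
H2-K1: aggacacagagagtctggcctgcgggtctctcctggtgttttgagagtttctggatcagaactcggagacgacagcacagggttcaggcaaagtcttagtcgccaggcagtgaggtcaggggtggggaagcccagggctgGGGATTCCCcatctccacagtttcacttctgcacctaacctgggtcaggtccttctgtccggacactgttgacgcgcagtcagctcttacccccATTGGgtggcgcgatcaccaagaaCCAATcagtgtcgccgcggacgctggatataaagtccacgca
H2-D1: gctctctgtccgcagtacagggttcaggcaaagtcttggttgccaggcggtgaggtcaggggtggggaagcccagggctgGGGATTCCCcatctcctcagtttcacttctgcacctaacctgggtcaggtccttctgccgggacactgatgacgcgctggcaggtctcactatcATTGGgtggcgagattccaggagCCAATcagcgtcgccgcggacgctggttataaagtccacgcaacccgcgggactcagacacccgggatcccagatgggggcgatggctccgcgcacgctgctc
The Tap1 window lies at chr17:34187306-34187605 on the plus strand.
Tap1: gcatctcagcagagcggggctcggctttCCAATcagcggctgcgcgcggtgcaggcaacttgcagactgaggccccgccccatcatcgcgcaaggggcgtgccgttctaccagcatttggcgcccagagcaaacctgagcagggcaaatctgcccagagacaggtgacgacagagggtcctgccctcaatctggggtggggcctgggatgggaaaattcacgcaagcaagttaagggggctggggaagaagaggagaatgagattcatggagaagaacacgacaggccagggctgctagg
The H2-Aa window lies at chr17:34287774-34288073 on the minus strand and the H2-Eb1 window at chr17:34305617-34305916 on the plus strand.
H2-Aa: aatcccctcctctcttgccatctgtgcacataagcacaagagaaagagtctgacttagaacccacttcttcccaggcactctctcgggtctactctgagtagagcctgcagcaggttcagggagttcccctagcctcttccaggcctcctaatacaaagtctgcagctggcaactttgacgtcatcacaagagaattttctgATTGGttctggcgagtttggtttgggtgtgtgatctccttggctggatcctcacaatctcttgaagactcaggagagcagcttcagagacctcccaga
H2-Eb1: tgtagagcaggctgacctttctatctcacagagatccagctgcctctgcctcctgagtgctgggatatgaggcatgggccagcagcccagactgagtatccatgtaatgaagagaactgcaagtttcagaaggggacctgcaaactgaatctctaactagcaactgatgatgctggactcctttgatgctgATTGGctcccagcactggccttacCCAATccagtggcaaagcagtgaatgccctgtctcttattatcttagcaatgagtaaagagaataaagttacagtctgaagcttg

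The H2-K1 and H2-D1 windows were identical at 211 of 239 aligned bases (88.3%). Both held the kappa B form, which was in 0.35% of the 32851 promoter windows of the table, and both held the Y box 2 times. The Y box was in 37.41% of all windows and in each of the 7 members' windows, in H2-Aa beginning 48 bases before the start site and in H2-Eb1 beginning 59 and 35 bases before it. The interferon form was in 8.56% of all windows and, among the members, in B2m alone. These matches describe letters in the windows and no binding was measured.

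Of the 10 genes Tap2 passed the edgeR test, in both comparisons of NMO+CL, and the other 9 passed it in none. In NMO against Normal 0 of 10 were called by edgeR, where 0.496% of all genes tested were called. The count was also 0 with DESeq2, with limma-voom and at an unadjusted p under 0.05. Against NMO, 1 of 10 was called in NMO+CL, Tap2, where 1.59% of all genes were called. Against Normal, 1 of 10 was called in NMO+CL, again Tap2, where 9.23% of all genes were called. In these 2 comparisons DESeq2 called 2 and 3 of 10 (Tap2 and H2-Aa, and against Normal also H2-Eb1) and limma-voom 0 and 1. Under the looser rule of the study (at least a 1.5-fold change, with p under 0.05 before adjustment) the counts were 0, 3 and 3 of 10, against 7.96%, 10.7% and 20.1% of all genes. The 3 genes were Tap2, H2-Aa and H2-Eb1 in both comparisons of NMO+CL, which share the NMO+CL libraries. The members' median log2 fold change was -0.05, -0.47 and -0.54 in the 3 comparisons, and the median over all genes tested lay between -0.0124 and -0.005.

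The libraries of no member were separated between NMO and Normal (17.4% of all genes, either direction). Between NMO+CL and NMO those of 2 members, H2-Eb1 and Cd74, lay wholly lower in NMO+CL (9.22% of all genes). Between NMO+CL and Normal those of 3 members, B2m, Tap2 and Tapbp, lay wholly lower in NMO+CL (14.9% of all genes).

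H2-K1 (17:33996017-34000347, minus strand, GRCm38) and H2-D1 (17:35262730-35267499, plus strand) did not pass the test in any comparison. H2-K1 measured 221, 234 and 299 CPM in the Normal libraries, 274, 302 and 282 CPM in the NMO libraries and 295, 275 and 278 CPM in the NMO+CL libraries. H2-D1 measured 327, 402 and 471 CPM in Normal, 382, 290 and 335 CPM in NMO and 323, 417 and 289 CPM in NMO+CL. The groups overlapped for both genes, and the widest spread lay among the Normal libraries. For H2-K1 the log2 fold change was 0.19 (95% interval -0.19 to 0.56, adjusted p = 0.868, edgeR) in NMO against Normal and -0.02 (-0.39 to 0.36, adjusted p = 0.991, edgeR) in NMO+CL against NMO. For H2-D1 the same values were -0.25 (-0.67 to 0.17, adjusted p = 0.793, edgeR) and 0.03 (-0.39 to 0.45, adjusted p = 0.983, edgeR).

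The CPM ratio of H2-K1 to H2-D1 was 0.674, 0.582 and 0.636 in the Normal libraries, 0.718, 1.04 and 0.842 in the NMO libraries and 0.914, 0.66 and 0.964 in the NMO+CL libraries. All 3 NMO libraries exceeded the Normal range, and the lowest NMO+CL library fell inside it. The ratio was not tested. Summed, the 2 genes came to 651 ± 112 CPM (SD, n = 3) in Normal, 622 ± 32.4 CPM in NMO and 626 ± 62.7 CPM in NMO+CL. The last 500 transcript bases of H2-K1 matched H2-D1 at 92.1% over 127 bases, and whether reads of 75 bases were counted at both genes was not tested. The tail of H2-D1 also matched 3 genes elsewhere at 95% or more over at least a read's length, Kdm2a among them. With all 29 class I heavy chain entries of the files summed to a single entry, the log2 fold change was -0.07 in NMO against Normal. For NMO+CL it was -0.04 against NMO and -0.11 against Normal.

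B2m (2:122147686-122153083, plus strand), which encodes the light chain shared by all class I molecules, measured 2748, 2562 and 2217 CPM in Normal, 1940, 2767 and 1514 CPM in NMO and 1544, 2068 and 1968 CPM in NMO+CL. Every NMO+CL library lay below every Normal library, while the NMO libraries spanned both. Its log2 fold change in NMO+CL against Normal was -0.43 (95% interval -0.85 to -0.02, adjusted p = 0.206, edgeR) and did not pass the test. Tapbp (17:33915899-33929292, plus strand) showed the same order, with 329, 322 and 359 CPM in Normal, 300, 325 and 275 CPM in NMO and 233, 293 and 246 CPM in NMO+CL. Its log2 fold change in NMO+CL against Normal was -0.39 (-0.76 to -0.02, adjusted p = 0.201, edgeR).

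**Figure D1:**
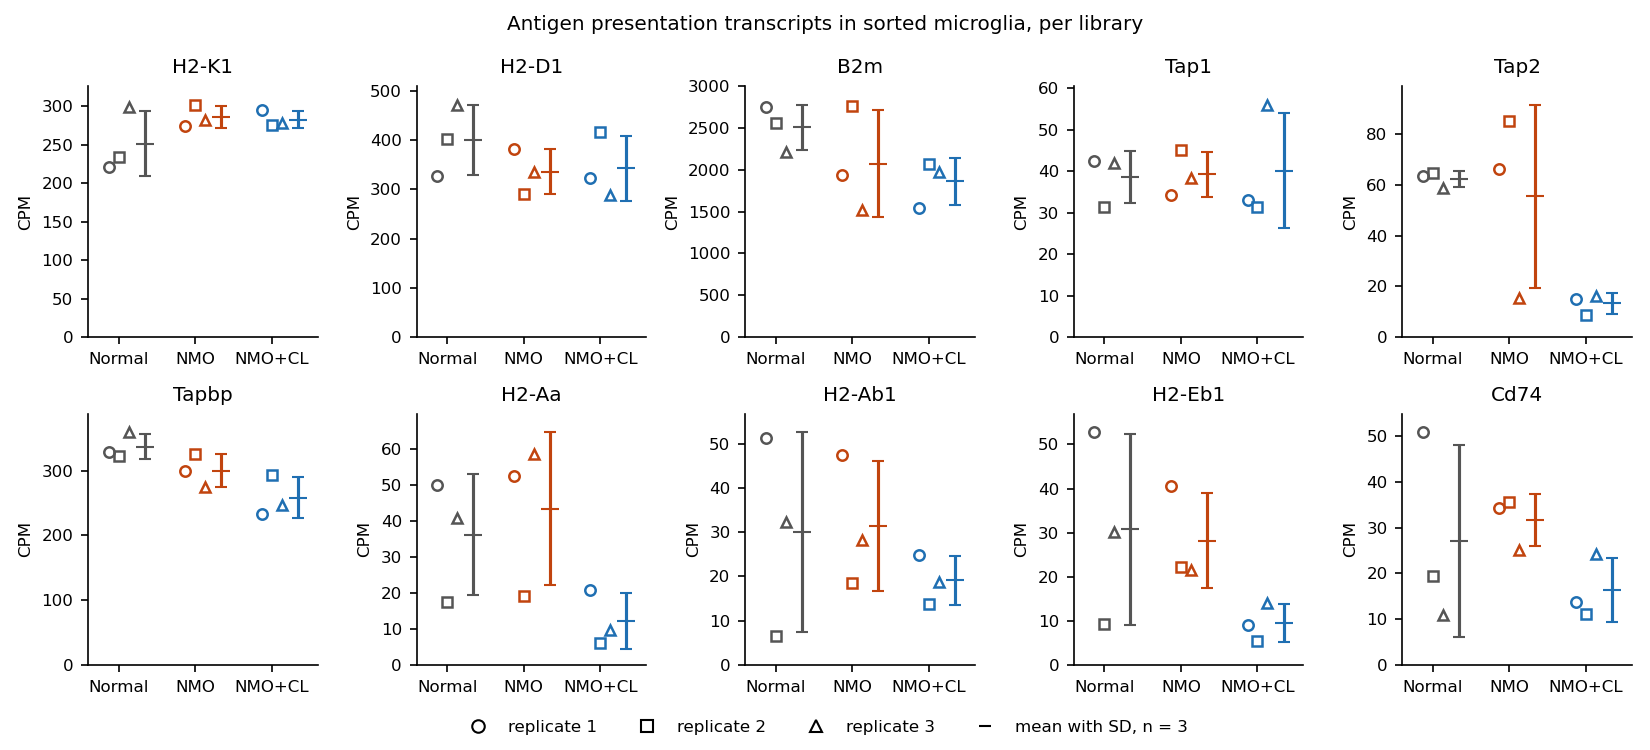
Level of the 10 genes in each library, in CPM on linear axes, with 3 libraries per group and the mean with SD beside them. Tap2 lies between 8.75 and 16.3 CPM in the NMO+CL libraries and at 15.4 CPM in NMO replicate 3, and between 58.9 and 85.1 CPM in the other 5 libraries.

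Tap2 was lower in NMO+CL than in either other group. Tap2 (17:34203527-34216321, plus strand) encodes a transporter subunit. It measured 63.6, 64.7 and 58.9 CPM in Normal (350 to 430 counts), 66.4, 85.1 and 15.4 CPM in NMO and 15.03, 8.75 and 16.3 CPM in NMO+CL (54 to 103 counts). The NMO+CL libraries lay below all Normal libraries. The NMO+CL libraries overlapped the NMO group through NMO replicate 3, whose 96 counts were like those of NMO+CL. Tap2 was 4.66-fold lower in NMO+CL than in Normal (log2 fold change -2.22, SE 0.45, adjusted p = 0.00436, edgeR), and this call held under all 16 alternative analyses. Against NMO it was 4.16-fold lower (log2 fold change -2.06, SE 0.45, adjusted p = 0.0259, edgeR). P2ry12 fell in the same comparisons, and the part of that change in the level of Tap2 was not tested.

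The call of Tap2 against NMO held under 7 of 16 alternatives, with adjusted p up to 0.143. Leaving out NMO replicate 3, the low library, gave a log2 fold change of -2.49 (adjusted p = 0.000842, edgeR), and leaving out NMO replicate 2, the library that stood apart, gave -1.61 (adjusted p = 0.0997). The call was also lost without Normal replicate 1, 2 or 3 (adjusted p = 0.051, 0.0506 and 0.0517, edgeR), without NMO replicate 1 (0.104) and without NMO+CL replicate 2 (0.143). In NMO against Normal the log2 fold change was -0.16 (95% interval -1.06 to 0.74, adjusted p = 0.975, edgeR), and 0.26 without NMO replicate 3.

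Tap1 (17:34187553-34197225, plus strand), which encodes the partner subunit, was not called. It measured 42.5, 31.3 and 41.9 CPM in Normal, 34.3, 45.1 and 38.3 CPM in NMO and 33.1, 31.3 and 56.0 CPM in NMO+CL, with overlap between all groups. Its log2 fold change in NMO+CL against NMO was 0.03 (95% interval -0.60 to 0.66, adjusted p = 0.988, edgeR). The CPM ratio of Tap2 to Tap1 was 1.49, 2.07 and 1.41 in Normal, 1.93, 1.89 and 0.402 in NMO and 0.454, 0.28 and 0.291 in NMO+CL. In NMO replicate 3 and all NMO+CL libraries the ratio was below 0.5, and in the other 5 libraries it was above 1. The difference between the fold changes of the 2 subunits was not tested.

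Psmb9, Tap1, Psmb8 and Tap2 lie in this order on chromosome 17. Psmb9 and Psmb8 encode catalytic subunits of the immunoproteasome, which cuts proteins into peptides suited to class I. Psmb9 (17:34181987-34187764, minus strand) runs head to head with Tap1, and in the GENCODE annotation their spans overlap at the 5′ ends. In RefSeq, the source of the promoter windows, their start sites lie 226 bases apart. There, 275 bases of the Tap1 window printed above also belong to that of Psmb9. Psmb9 measured 38.4, 49.4 and 50.3 CPM in Normal, 36.7, 50.5 and 31.7 CPM in NMO and 14.0, 7.45 and 2.88 CPM in NMO+CL (18 to 96 counts). All NMO+CL libraries were below all others. Psmb9 had a log2 fold change of -2.28 (SE 0.44, adjusted p = 0.0131, edgeR) against NMO and -2.50 (SE 0.44, adjusted p = 0.00145, edgeR) against Normal, called under 14 of 16 and 16 of 16 alternatives. Without NMO+CL replicate 2 the first had an adjusted p of 0.0764 (edgeR).

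Psmb8 measured 93.2, 92.4 and 101 CPM in Normal, 103, 80.3 and 96.4 CPM in NMO and 80.0, 79.7 and 32.2 CPM in NMO+CL. All NMO+CL libraries were lower, 2 of them by less than 1 CPM against the lowest NMO library, and the log2 fold change of -0.54 against NMO (95% interval -1.14 to 0.06, adjusted p = 0.463, edgeR) did not pass the test. Psmb9 and Tap1 share exon bases only at their 5′ ends. On the opposite strand, exons of Tap2 overlapped those of Gm15821 and Gm20496, and exons of Psmb8 overlapped those of Gm20496. The last 500 genomic bases of the spans of Tap1, Tap2, Psmb8 and Psmb9 overlapped no exon of another gene. Whether reads of the opposite strand were counted at these genes was not tested.

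**Figure D2:**
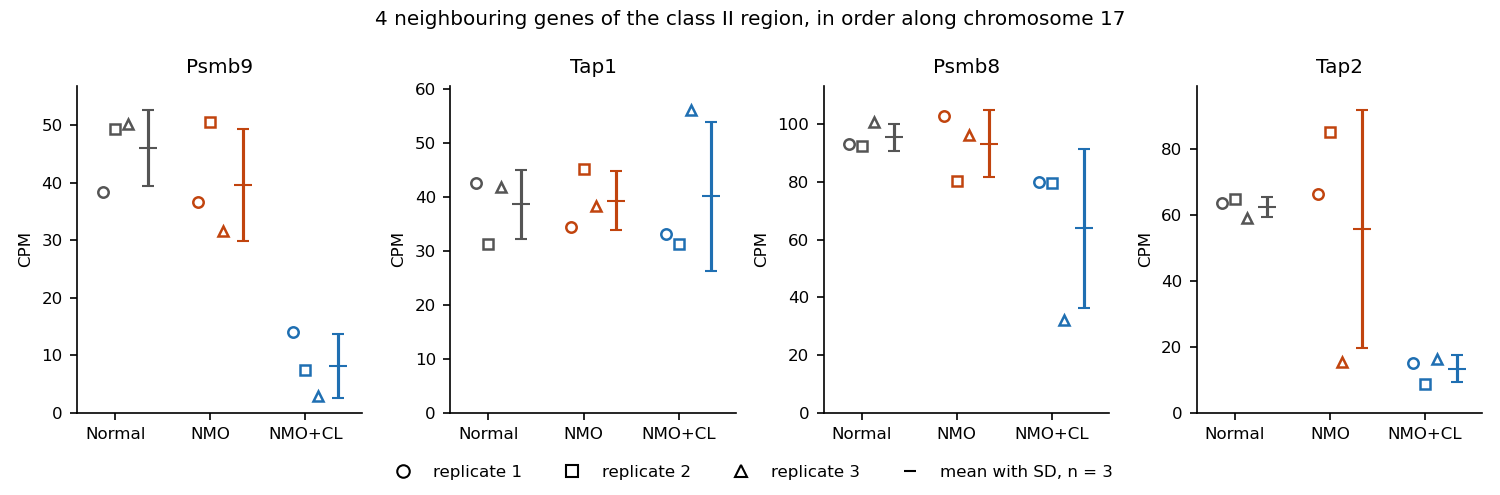
CPM of the neighbouring genes Psmb9, Tap1, Psmb8 and Tap2 in each library, in chromosomal order on linear axes, with the mean and SD of 3 libraries per group. Psmb9 and Tap2 are low in the NMO+CL libraries, at 2.88 to 14.0 and 8.75 to 16.3 CPM, while Tap1 spans 31.3 to 56.0 CPM there.

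The class II chains had their lowest means in NMO+CL, and the tools differed on the calls: edgeR and limma-voom called none, while DESeq2 called H2-Aa against NMO (adjusted p = 0.025) and against Normal (adjusted p = 0.0317) and H2-Eb1 against Normal (adjusted p = 0.0282). H2-Aa (17:34282744-34287823, minus strand) encodes an alpha chain. It measured 50.04, 17.5 and 40.9 CPM in Normal, 52.3, 19.2 and 58.6 CPM in NMO and 20.9, 5.99 and 9.77 CPM in NMO+CL, from 37 to 416 counts. NMO+CL replicate 1 alone reached the range of the other groups. H2-Aa had a log2 fold change of -1.82 (SE 0.51, adjusted p = 0.0896, edgeR) against NMO and -1.56 (SE 0.50, adjusted p = 0.0617, edgeR) against Normal.

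H2-Eb1 (17:34305867-34316674, plus strand) and H2-Ab1 (17:34257689-34269419, plus strand) encode beta chains. H2-Eb1 measured 52.7, 9.33 and 30.1 CPM in Normal, 40.6, 22.3 and 21.6 CPM in NMO and 9.05, 5.51 and 13.9 CPM in NMO+CL. All NMO+CL libraries were below all NMO libraries, and Normal replicate 2 was as low as they were. Its log2 fold change was -1.57 (SE 0.53, adjusted p = 0.183, edgeR) against NMO and -1.69 (SE 0.53, adjusted p = 0.0557, edgeR) against Normal. H2-Ab1 measured 51.3, 6.47 and 32.3 CPM in Normal, 47.4, 18.4 and 28.2 CPM in NMO and 24.8, 13.8 and 18.7 CPM in NMO+CL. Its groups overlapped, and the lowest library of all was Normal replicate 2. The log2 fold change against NMO was -0.71 (95% interval -1.84 to 0.42, adjusted p = 0.654, edgeR).

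Cd74 measured 50.8, 19.4 and 10.9 CPM in Normal, 34.3, 35.7 and 25.1 CPM in NMO and 13.7, 11.2 and 24.3 CPM in NMO+CL. Every NMO+CL library was below every NMO library, by less than 1 CPM at the closest, and the Normal libraries spanned both groups. Cd74 had a log2 fold change against NMO of -0.95 (95% interval -1.96 to 0.06, adjusted p = 0.443, edgeR). In NMO against Normal the log2 fold change of the 4 class II genes lay between -0.12 and 0.26, and each adjusted p was at least 0.956 (edgeR).

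The class II calls depended on the analysis. H2-Aa passed the test under 5 of 16 alternatives against NMO and 6 of 16 against Normal, and H2-Eb1 under 1 and 6 of 16, while H2-Ab1 and Cd74 passed under none. Among libraries left out, H2-Aa was called against NMO without NMO replicate 2 or NMO+CL replicate 1, and against Normal without Normal replicate 2, NMO replicate 2 or NMO+CL replicate 1. H2-Eb1 was called against Normal without Normal replicate 2, NMO replicate 2 or NMO+CL replicate 3. Without NMO replicate 2, H2-Aa was called against NMO (log2 fold change -2.18, adjusted p = 0.0284, edgeR), and Tap2 was not.

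**Figure D3:**
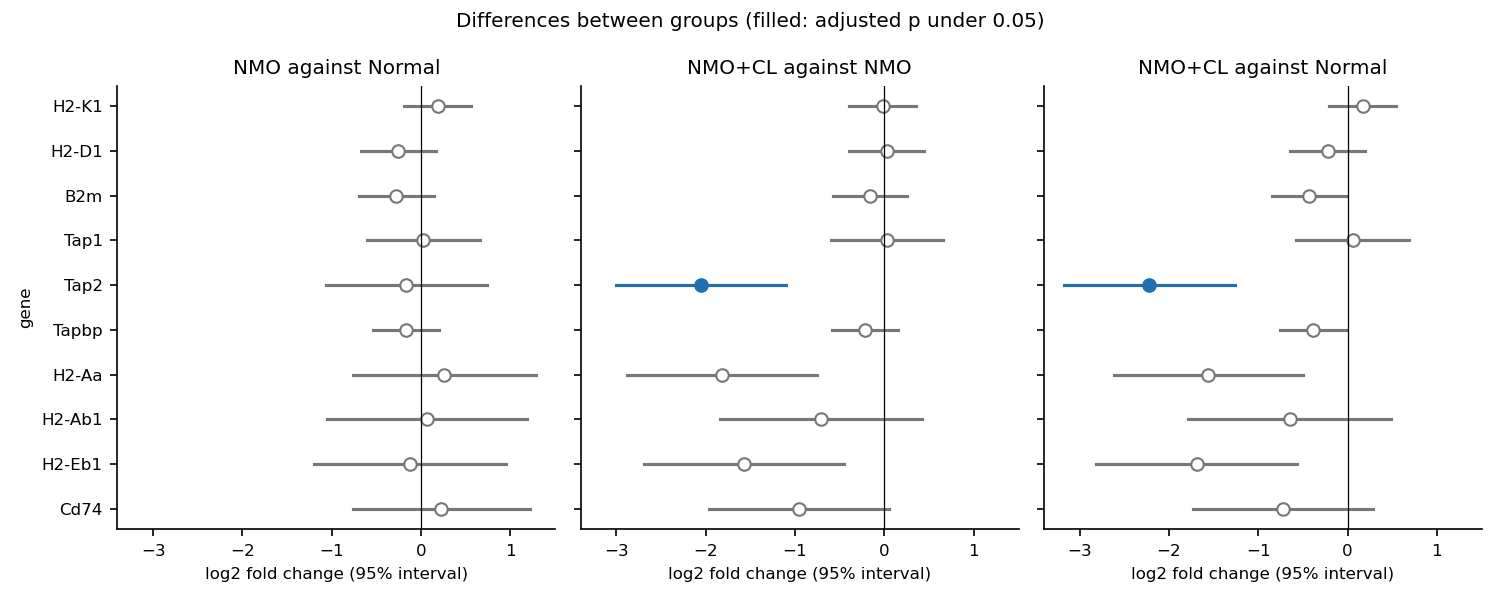
Log2 fold change with its 95% interval for the 10 genes in the 3 comparisons, on a shared axis, filled where called. Tap2 is the filled point in both comparisons of NMO+CL, at -2.06 and -2.22, and no gene is filled in NMO against Normal.

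Within groups the 4 class II genes kept a partly shared order. In each group replicate 2 was lowest for H2-Aa and H2-Ab1, and for H2-Eb1 it was lowest in Normal and NMO+CL. Cd74 had the order of H2-Eb1 in NMO+CL, where replicate 3 was highest and replicate 2 lowest, but was lowest in Normal replicate 3 and in NMO was highest in replicate 2. Summed over H2-Aa, H2-Ab1, H2-Eb1 and Cd74, replicate 1 was highest and replicate 2 lowest in each group, at 205, 52.7 and 114 CPM in Normal, 175, 95.5 and 134 CPM in NMO and 68.4, 36.5 and 66.8 CPM in NMO+CL. The replicate numbers name pools, and nothing in the labels says that they link the groups. Normal replicate 1 held the highest level of the Normal libraries for all 4 genes.

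Markers of other cells moved with part of this pattern. The 6 monocyte markers, among them Ccr2 and Ly6c2, summed to 51.2, 18.8 and 27.6 CPM in Normal, 63.4, 31.5 and 39.4 CPM in NMO and 68.6, 37.7 and 23.1 CPM in NMO+CL. The order of this sum among the libraries was that of the class II sum in Normal and in NMO, and not in NMO+CL. In NMO+CL Chil3 was the larger part of it in replicates 1 and 2, at 44.1, 21.9 and 8.81 CPM, while Ccr2 (8.61, 1.78 and 6.41 CPM) and Ly6c2 (5.11, 2.43 and 3.84 CPM) had the order of the class II sum there. All 6 monocyte markers were tested and none was called in any comparison by edgeR, DESeq2 or limma-voom, with 1 (Chil3) at an unadjusted p under 0.05 in NMO+CL against Normal and 0 in the others. The 6 neutrophil markers, among them S100a8, summed to 481, 36.0 and 39.0 CPM in Normal, 244, 89.9 and 342 CPM in NMO and 263 CPM in replicate 2, 487 CPM in replicate 3 and 1246 CPM in replicate 1 of NMO+CL. Within groups their order was that of the class II sum in Normal and in NMO+CL, and not in NMO. Between groups NMO+CL had the highest mean of these markers and the lowest class II mean. All 6 neutrophil markers were tested and none was called by edgeR. S100a8 and S100a9 had an unadjusted p under 0.05 in NMO+CL against Normal, where limma-voom called both and DESeq2 called 0, and S100a8 had one against NMO, where both tools called 0.

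Markers of other cells that carry class II were present at uneven levels. Of the 8 dendritic cell markers, which summed to between 22.8 and 55.1 CPM over all libraries, Batf3 had 85 to 280 counts and Itgax 37 to 193, a range that overlaps that of the class II genes (34 to 416 counts), while Flt3 had at most 29 counts and Zbtb46 at most 6. Of the B cell markers, Cd79b had 21 to 149 counts, Cd79a at most 12 and Ms4a1 at most 11. The T and NK cell markers summed to at most 6.32 CPM, with Cd3e at 0 in all 9 libraries. The 8 border macrophage markers, a class II-bearing lineage, summed to between 160 and 308 CPM in Normal, 10.8 and 194 CPM in NMO and 224 and 412 CPM in NMO+CL. Most of each sum but one was Cbr2, at 200 ± 73.8 CPM (SD, n = 3) in Normal and 276 ± 108 CPM in NMO+CL, and in the low library, NMO replicate 2, Cbr2 had 0 counts. F13a1 also had a higher mean in NMO+CL (7.11 CPM, against 1.27 CPM in Normal), and lower means were found for Mrc1 (15.7 CPM in Normal and 14.3 CPM in NMO+CL), Lyve1 (8.03 and 6.14 CPM), Pf4 (4.84 and 2.36 CPM) and Cd163 (1.04 and 0 CPM). Among markers of non-immune cells edgeR, DESeq2 and limma-voom called the endothelial gene Kdr, 1 of 5 tested, higher in NMO+CL, at 36.0 ± 5.23 CPM (SD, n = 3) against 9.90 ± 2.34 CPM in NMO and 13.9 ± 5.35 CPM in Normal. All 3 tools also called Slc1a3, 1 of 4 tested of the astrocyte and oligodendrocyte list, lower in NMO+CL than in Normal, at 95.5 ± 27.9 against 176 ± 30.8 CPM. After the group means were taken off the log2 CPM, each tested marker was set beside the mean of the 4 class II genes over the 9 libraries, in which all values share depth and composition. Pearson's r ran from -0.078 to 0.917 for the 6 monocyte markers (Ly6c2 highest, then Ccr2 at 0.86) and from 0.302 to 0.903 for the 6 neutrophil markers. For the 5 dendritic cell markers it ran from -0.858 to 0.014, with Batf3 lowest and thus opposite to class II within groups. It ran from -0.383 to 0.711 for the 8 microglia markers, with P2ry12 highest, from -0.561 to 0.611 for 6 border macrophage markers, from 0.075 to 0.708 for the 5 endothelial markers and from -0.695 to 0.512 for the 4 astrocyte and oligodendrocyte markers. The part of any of these cells, or of the change in P2ry12, in the class II levels was not tested.

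**Figure D4:**
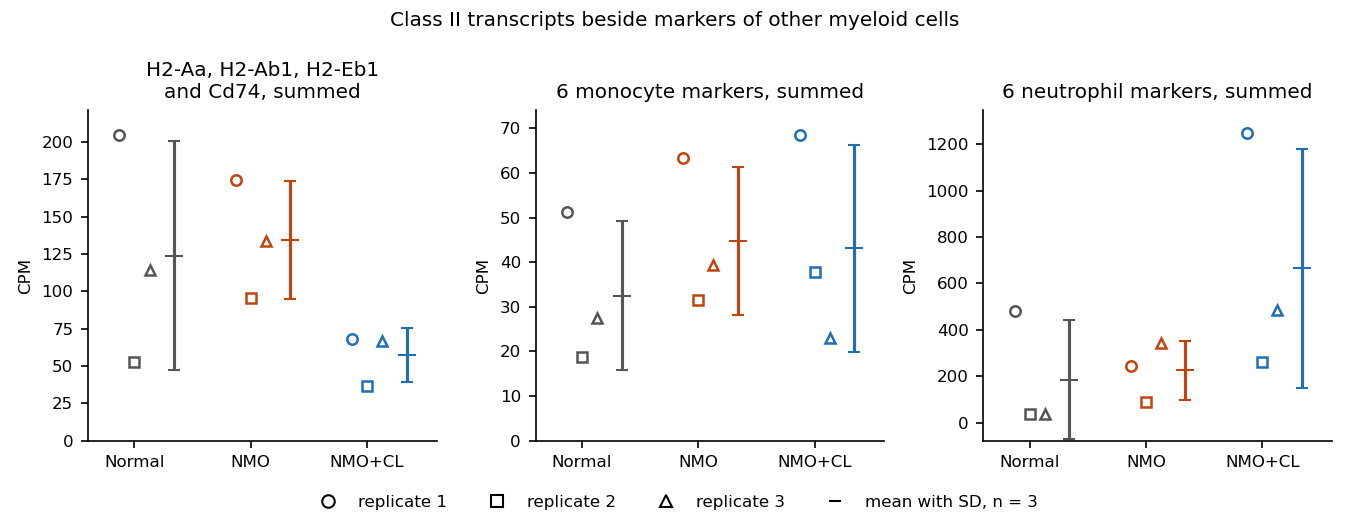
Summed CPM of the 4 class II genes, of 6 monocyte markers and of 6 neutrophil markers in each library, on linear axes with the mean and SD of 3 libraries per group. The class II sum is 36.5 to 68.4 CPM in NMO+CL, where the neutrophil sum reaches 1246 CPM and the monocyte sum spans 23.1 to 68.6 CPM.

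Other genes of the pathway were read in the same fit. None of the 63 genes tested in the 7 lists was called by edgeR in NMO against Normal, where 4 had an unadjusted p under 0.05, DESeq2 called 1 (Ifi30) and limma-voom called 0. For NMO+CL, 2 of 63 were called against NMO, beside 1.59% of all genes, and 6 of 63 against Normal, a share near the 9.23% of all genes. DESeq2 called 4 and 7 of them and limma-voom 4 and 6. In the class I supply and assembly list, with 11 of 11 genes tested, 1 fell in NMO+CL against NMO (Psmb9), and against Normal 1 rose and 1 fell (Calr and Psmb9). Calr, the chaperone calreticulin, measured 1118 ± 138 CPM (SD, n = 3) in Normal, 1105 ± 56.0 CPM in NMO and 1627 ± 203 CPM in NMO+CL, with all NMO+CL libraries above all others. Its log2 fold change against Normal was 0.54 (adjusted p = 0.0424, edgeR), called under 8 of 16 alternatives and lost without any of the Normal libraries, NMO replicate 1 or NMO+CL replicate 2 or 3 (adjusted p = 0.0695 to 0.188). The list's median log2 fold change was 0.13 against NMO and 0.18 against Normal. Nlrc5, the class I coactivator, had 3 to 69 counts.

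In the class II loading and control list, with 13 of 16 genes tested, 1 rose in NMO+CL against NMO (Ifi30), and against Normal 1 rose and 1 fell (Ifi30 and Lgmn). Ifi30 encodes a thiol reductase that opens disulfide bonds of engulfed proteins. It measured 150, 186 and 183 CPM in Normal, 296, 271 and 271 CPM in NMO and 627, 762 and 638 CPM in NMO+CL, and the groups did not overlap. Ifi30 had a log2 fold change of 1.28 (SE 0.18, adjusted p = 0.00178, edgeR) against NMO and 1.97 (SE 0.18, adjusted p = 4.8e-06, edgeR) against Normal, called under all 16 alternatives in both. In NMO against Normal it was 0.69 (adjusted p = 0.0954, edgeR).

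Lgmn, a lysosomal protease, measured 1609, 1122 and 1770 CPM in Normal, 1603, 2114 and 891 CPM in NMO and 984, 533 and 308 CPM in NMO+CL. NMO replicate 3 was the low library of its group, as for Tap2. The log2 fold change against Normal was -1.30 (adjusted p = 0.0216, edgeR), called under 11 of 16 alternatives and lost without Normal replicate 1 or 3 or NMO+CL replicate 2 or 3 (adjusted p = 0.0594 to 0.0928) and with DESeq2 (adjusted p = 0.058). Against NMO it was -1.34 (adjusted p = 0.0611, edgeR), which limma-voom called (adjusted p = 0.0133) and DESeq2 did not (adjusted p = 0.124). The peptide exchange chains H2-DMa and H2-DMb1 were not called, with log2 fold changes of 0.26 and 0.45 against NMO. H2-Ob, a chain of the protein that restrains this exchange, measured 22.5 ± 4.19 CPM in Normal, 13.6 ± 6.32 CPM in NMO and 8.20 ± 1.37 CPM in NMO+CL (SD, n = 3), with all NMO+CL libraries below all Normal ones. Its log2 fold change against Normal was -1.45 (adjusted p = 0.0634, edgeR), and DESeq2 called it there while limma-voom did not. Ciita had 0 to 10 counts over the 9 libraries and was at 0 in all 3 NMO+CL libraries. The list's median log2 fold change was 0.31 against NMO and 0.11 against Normal.

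Of the 17 other class I heavy chain genes 8 were tested and none was called by edgeR in any comparison, with 2 at an unadjusted p under 0.05 in each comparison of NMO+CL. DESeq2 called 1 of them, H2-T23, in NMO+CL against Normal (5 to 7 counts per NMO+CL library and 21 to 76 per Normal library), and limma-voom called 0. The last 500 transcript bases of H2-T23 matched 37 other genes at 95% or more over at least a read's length, and whether reads of those genes were counted at it was not tested. All 8 log2 fold changes were below 0 in NMO+CL against Normal, with a median of -0.59. H2-T24, the highest of them, measured 28.9 ± 1.76 CPM (SD, n = 3) in Normal, 34.4 ± 8.01 CPM in NMO and 19.7 ± 3.68 CPM in NMO+CL, and H2-T22 measured 12.5 ± 0.881, 7.48 ± 4.84 and 9.35 ± 4.12 CPM. The tail of H2-T22 matched that of H2-T10 at 98.6% over 500 bases, so reads of either could be counted at both.

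Of the 6 costimulation and checkpoint ligand genes 4 were tested and none was called by edgeR, DESeq2 or limma-voom, with 1 (Cd274) at an unadjusted p under 0.05 in NMO against Normal and 0 in the others. Cd86, a ligand for CD28, measured 103 ± 22.1 CPM in Normal, 102 ± 12.3 CPM in NMO and 98.0 ± 22.2 CPM in NMO+CL (SD, n = 3). Icosl measured 61.4 ± 11.2, 45.6 ± 14.5 and 55.2 ± 18.9 CPM in the same order. The interferon gamma receptor pathway had 9 of 9 genes tested and none called by edgeR. An unadjusted p under 0.05 was found for Irf2 in NMO against Normal and for Ifngr1 in NMO+CL against NMO, where DESeq2 called Ifngr1, and for 0 in NMO+CL against Normal. For limma-voom the count was 0 throughout. Irf8, a transcription factor of myeloid cells, measured 992 ± 47.2, 1131 ± 85.6 and 942 ± 59.5 CPM, and the receptor chain gene Ifngr1 measured 655 ± 50.4, 549 ± 46.3 and 739 ± 77.1 CPM.

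Of 10 GTPase and chemokine genes induced by interferon gamma 9 were tested. Against NMO, edgeR, DESeq2 and limma-voom called 0 in NMO+CL, and 1 (Irgm2) had an unadjusted p under 0.05. Against Normal 1 rose and 1 fell. The gene that rose was Gbp7, at 112 ± 27.1 CPM in Normal, 179 ± 23.3 CPM in NMO and 244 ± 34.9 CPM in NMO+CL (SD, n = 3), with a log2 fold change of 1.12 (adjusted p = 0.00277, edgeR) called under all 16 alternatives. The gene that fell was Irgm2, at 51.1 ± 8.01, 35.7 ± 13.3 and 16.4 ± 7.98 CPM, with a log2 fold change of -1.64 (adjusted p = 0.0106, edgeR) called under 14 of 16 and lost without Normal replicate 3 (adjusted p = 0.0583) or NMO+CL replicate 2 (0.0516). Both encode GTPases that act on vacuoles of pathogens. Irgm2 shares exon bases with Igtp on the same strand, outside the last 500 genomic bases of its span. The type I interferon list had 9 of 9 tested, with 0 called by edgeR, DESeq2 or limma-voom and 0 at an unadjusted p under 0.05 in every comparison. Its highest genes were Ifit3, at 22.01 ± 4.67, 8.82 ± 7.48 and 13.9 ± 9.76 CPM, and Oasl2, with a mean of 6.98 CPM over the 9 libraries.

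**Figure D5:**
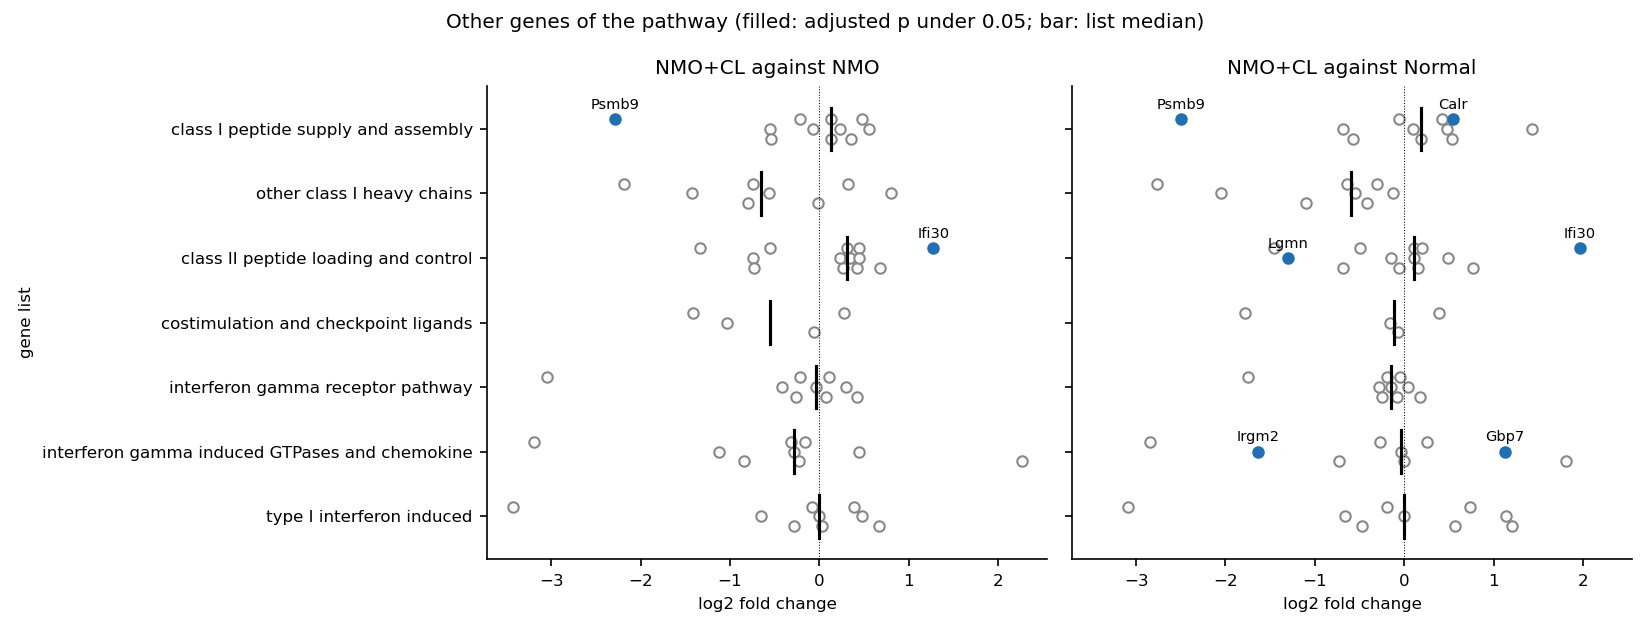
Log2 fold change of each tested gene of 7 pathway lists in the 2 comparisons of NMO+CL, filled and named where called, with a bar at the median of each list. Psmb9 lies at -2.28 and -2.50 and Ifi30 at 1.28 and 1.97, while most other genes are open points around 0.

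The genes whose log2 CPM followed the mean of the 4 class II genes most closely, among 8154 genes compared over the 9 libraries, were Cd180 (Pearson r = 0.925), Rcbtb1 (0.911), Ccr2 (0.907), Tex264 (0.886) and Vps54 (0.885). Cd180 encodes a Toll-like surface receptor and Ccr2 the chemokine receptor of inflammatory monocytes. Ccr2 measured 17.5, 3.61 and 19.0 CPM in Normal, 19.6, 6.70 and 19.5 CPM in NMO and 8.61, 1.78 and 6.41 CPM in NMO+CL. As with the class II sum, replicate 2 was the lowest library of each group. For the mean of H2-K1, H2-D1 and B2m the closest genes were Ankmy2 (0.93), Ids (0.912), Top2b (0.908), Nbr1 (0.903) and Gbas (0.901). These points share library depth and scaling, and the highest of many r values are high by selection.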

How the data were processed

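Counts per gene symbol of 9 QuantSeq 3′ libraries were deposited as raw read counts. The authors aligned single-end reads of 75 bases with Bowtie2 and counted unique and multiple alignments with bedtools coverage. Per the labels' processing notes the build was mm10. Annotation and use of strand are not given in the sources used here. Entries with the same symbol were summed, which touched no member.

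Counts were fitted in edgeR 4.0.16 (R 4.3.3), with filterByExpr (minimum count 10, minimum total 15), TMM factors, all 9 libraries and group as the only term. P-values come from the two-sided quasi-likelihood test, adjusted by Benjamini and Hochberg over 12292 genes. The code was tested on simulated counts. Alternatives were DESeq2 size factors, library totals alone, no filter, the DESeq2 1.42.0 Wald test, limma-voom (limma 3.58.1), the 2 groups compared alone, a replicate block, each library left out, summed heavy chains and the thresholds of the study.

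Members and gene lists were chosen with earlier results of these data known. Named were the 10 members, every list gene called in a comparison (or the 2 highest of a list with none), markers of other cells, and the 5 genes most like each class. H2-T10, H2-T23, H2-DMa, H2-DMb1, H2-Ob, Psmb8, Cd274, Irf2, Ciita and Nlrc5 were added after their values were seen. Gene positions are from GENCODE M21 (GRCm38), promoters from RefSeq.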

Additional observations from a re-analysis of the deposited data

How the results depend on the processing

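Calls and directions of the members were recomputed under each alternative. Of 486 values, 425 kept direction and side of the threshold, 18 passed it newly, 9 lost it and 34 changed sign, all of the last with adjusted p of at least 0.719. With 3 pools per group and a common coefficient of variation of 0.519, changes of low genes such as the class II chains are measured loosely.

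Genes called in NMO against Normal, 61 in the report, were 96 with library totals alone, 223 without a filter, 222 with DESeq2, 34 from the 2 groups alone and 979 with the study's thresholds, and 20 to 75 with a library left out. In NMO+CL against NMO, 196 became 496 without a filter, 465 with DESeq2, 73 from the 2 groups and 1320 with the study's thresholds (51 to 231 with a library left out), and the 1 member became 3 without a filter, 2 with DESeq2, 0 with limma-voom, 0 from the 2 groups and 3 with the study's thresholds (0 to 2). In NMO+CL against Normal, 1134 became 2472 with the study's thresholds (649 to 1263), and the 1 member 3 without a filter, 3 with DESeq2 and 3 with the study's thresholds (1 to 3). The cause was not tested.

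Replicate numbers pair nothing in the labels. Over all genes tested, residuals of same-numbered libraries correlated between -0.0148 and 0.0302. A link confined to few genes would not show in such a correlation, and whether same-numbered pools shared a day or sort is not known. With a replicate block, 3 members were called in NMO+CL against Normal (Tap2, H2-Aa at -1.59 and H2-Eb1 at -1.50), and against NMO H2-Aa was called (-1.85, adjusted p = 0.0128) and Tap2 was not (-1.90, adjusted p = 0.051). Under the block H2-Eb1 was 0.11 in NMO against Normal and Tap1 -0.0124 in NMO+CL against NMO.

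Signs changed as follows, in log2 fold changes. H2-Eb1 in NMO against Normal was 0.0045 with library totals and 0.18 with limma-voom. H2-K1 with heavy chains summed was -0.0662 in NMO against Normal and -0.11 in NMO+CL against Normal. In NMO+CL against NMO, H2-K1 was 0.0149 with DESeq2 size factors and with the DESeq2 test, H2-D1 -0.0085 with library totals and -0.0428 with heavy chains summed, and Tap1 -0.0191 with library totals and -0.0184 with limma-voom. With a library left out, the ranges in NMO against Normal were Tap1 -0.10 to 0.0945, Tap2 -0.61 to 0.26, H2-Aa -0.0701 to 0.61, H2-Ab1 -0.42 to 0.69, H2-Eb1 -0.56 to 0.51 and Cd74 -0.16 to 1.05. Ranges in NMO+CL against NMO were H2-K1 -0.0493 to 0.0262, H2-D1 -0.14 to 0.15, B2m -0.33 to 0.11 and Tap1 -0.29 to 0.18. Ranges in NMO+CL against Normal were Tap1 -0.26 to 0.21 and Cd74 -1.12 to 0.12.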
